A study of Homo sapiens with 18 samples.

Results

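The genes of the AP-1 transcription factors and their close bZIP relatives were examined in 3 cell lines of head and neck squamous cell carcinoma (HNSCC). The 10 genes were chosen by symbol from the 19901 genes of the count table. They are FOS, FOSB, FOSL1 and FOSL2 of the FOS subfamily, JUN, JUNB and JUND of the JUN subfamily, and JDP2, ATF3 and BATF3, whose products pair with JUN proteins. Each symbol matched 1 gene, and all 10 had enough reads to be tested.

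AP-1 is a dimer held together by leucine zippers. JUN proteins pair with each other or with FOS proteins, FOS proteins need a JUN partner, and the dimer binds the TPA response element (TRE) or the related cyclic AMP response element (CRE). JDP2, the Jun dimerization protein, forms dimers that mostly repress these elements. FOS, FOSB, JUNB and ATF3 are textbook immediate early or stress genes, whereas FOSL1 (FRA-1) is a later, ERK-dependent member that is well known from invasive epithelial tumors.

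Detroit 562 was derived from a metastasis of a pharyngeal tumor, FaDu from a primary hypopharyngeal tumor and SCC-9 from a primary tongue tumor. In each line, mRNA was sequenced from 3 untreated libraries (control) and 3 libraries that had received HGF, the ligand of the Met receptor, at 50 ng/mL. The treatment lasted 16 h by the sample records and by the study's methods for mRNA sequencing, whereas the series record gives 48 h. All cells were detached with trypsin before lysis, and only the SCC-9 medium contained hydrocortisone, so that medium and cell line cannot be told apart in comparisons with SCC-9. Each tumor type is thus represented by 1 established line. The study's methods state that the experiment was repeated, but no source used here says which library came from which repeat, and p-values measure the spread between these libraries. In such bulk RNA, a change in fewer cells and a smaller change in every cell cannot be told apart.

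Total counts ranged from 35304770 to 44003970 per library. Levels are given as CPM, the read count scaled to library size after TMM normalization. All 8 squamous epithelial markers reached 1 CPM in each line, although KRT14 did not exceed 1.43 CPM in Detroit 562. Of the 5 leukocyte markers only CD68 reached 1 CPM, whose highest level was 57.9 CPM in SCC-9, 56.0 CPM in Detroit 562 and 35.9 CPM in FaDu, while PTPRC stayed at or below 0.0808 CPM. Of the 5 fibroblast markers, COL1A1 reached 86.6 CPM in SCC-9, 21.3 CPM in Detroit 562 and 6.67 CPM in FaDu. The others stayed low, with DCN at up to 1.73 CPM and COL3A1, PDGFRB and LUM at no more than 0.239 CPM. The 4 endothelial markers summed to between 0.639 and 8.34 CPM per library. The ERK feedback genes DUSP6 and SPRY4 served as a check of the HGF response. DUSP6 rose by a log2 fold change of 1.53 in Detroit 562 (SE 0.196, padj = 0.000247) and 1.44 in FaDu (SE 0.187, padj = 0.0115), and its 0.47 in SCC-9 (SE 0.174, padj = 1) was not called. SPRY4 rose by 1.95 in Detroit 562 (SE 0.413, padj = 0.00433). Its 1.80 in FaDu (SE 0.476, padj = 0.413) and 0.85 in SCC-9 (SE 0.379) were not called. In the fit that takes the replicate number into account, all 6 of these comparisons were called. SPRY4 then had log2 fold changes of 1.94, 1.80 and 0.88 in Detroit 562, FaDu and SCC-9. Here padj is the adjusted p of edgeR's two-sided quasi-likelihood test, and a gene was called at padj below 0.1 with a log2 fold change of 0.4 or more in size.

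Elements of the kind that AP-1 and CREB/ATF dimers bind were looked for in the promoters of the genes themselves. The windows are 30 bases of RefSeq promoters (GRCh38.p14), 5′ to 3′ on the strand of the gene, with the match in capitals. They are shown as sequence, and whether they bear on the response to HGF was not tested.
JDP2: tccgtccccctcTGACGTctggagctggca
FOS: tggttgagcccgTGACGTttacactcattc
FOSB: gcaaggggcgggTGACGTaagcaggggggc
FOSL2: ggagtctggggtTGACGTgagtgaatccac
JUND: ggccgcccccaTGACGTCAacccacaaggc
JUN: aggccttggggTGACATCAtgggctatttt
ATF3: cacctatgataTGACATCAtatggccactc

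The window of JDP2 lies at chr14:75427913-75427942 and that of FOS at chr14:75278752-75278781, both on the plus strand. FOSB lies at chr19:45467924-45467953, FOSL2 at chr2:28392780-28392809 and ATF3 at chr1:212565273-212565302, also on the plus strand. JUND lies at chr19:18281804-18281833 and JUN at chr1:58784096-58784125 on the minus strand. The matches begin 64 bases before the RefSeq start of FOS, 60 before that of FOSB, 66 before that of FOSL2, 67 before that of JUN, 97 before that of JDP2, 123 before that of ATF3 and 200 before that of JUND. The RefSeq start used can lie inside the gene extent over which reads were counted. The printed stretches of JDP2, FOSL2 and JUN lie within that extent, that of FOS overlaps its beginning, and those of FOSB, JUND and ATF3 lie outside.

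RefSeq promoters were found for 8 of the 10 genes, all but FOSL1 and BATF3, with 11 windows for these 8. Matches are counted per gene below, whereas the shares over all promoters are counted per window. Both strands of the 250 bases before each start were searched for 5 motifs. The CRE half-site TGACGT, which is also contained in the full CRE, was present in FOS, FOSB, FOSL2, JUND and JDP2, against 7.10% of all 35114 promoter windows. JUND alone held the full CRE TGACGTCA, which 1.65% of windows hold. JUN and ATF3 shared TGACATCA, the JUN-type element, found in 2.38% of windows. The TRE TGACTCA (4.20% of windows) and the CArG box (1.16%) had no match in the windows of the 8 genes. Sequence beyond these 250 bases was not searched, so an element lying further upstream would have been missed. These matches describe the sequence and were not tested as binding sites.

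In untreated cells, JUNB and FOSL1 had the highest levels per length in every line. On the scale of CPM per kb of exon, JUNB was at 107 ± 30.4 (SD, n = 3) for Detroit 562, 95.5 ± 31.7 for FaDu and 70.0 ± 12.4 for SCC-9. FOSL1 followed at 95.1 ± 52.5, 78.3 ± 26.4 and 46.8 ± 9.98. The libraries of these neighbors overlapped in Detroit 562 and FaDu, but not in SCC-9.

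In Detroit 562 and FaDu, FOS came next, at 31.7 ± 44 and 30.7 ± 37.2 CPM per kb. Its SD exceeded its mean in both lines, and its range overlapped that of both neighbors. In SCC-9 FOS was sixth at 14 ± 6.39, below JUN (38 ± 4.26), JUND (27.2 ± 1.04) and FOSL2 (27.1 ± 0.491). JUND and FOSL2 could not be ordered in SCC-9, and their order turned when the longest transcript was used as the length.

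ATF3, FOSB and BATF3 were low everywhere. ATF3, a stress-induced factor, was at 1.71 ± 0.267, 2.66 ± 0.363 and 4.10 ± 0.889 CPM per kb in Detroit 562, FaDu and SCC-9. With the longest transcript as the length, these means were 3.25, 5.06 and 7.8, so the level of ATF3 depends on the length chosen. FOSB stayed between 1.46 and 1.68 on average. In SCC-9, JDP2 (1.51 ± 0.0459 CPM per kb) was as low as FOSB, and their ranges overlapped. BATF3, known from dendritic cells, had at most 0.227 CPM per kb on average, and its 5 to 35 counts per library make it the least precise of the 10.

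**Figure D1:**
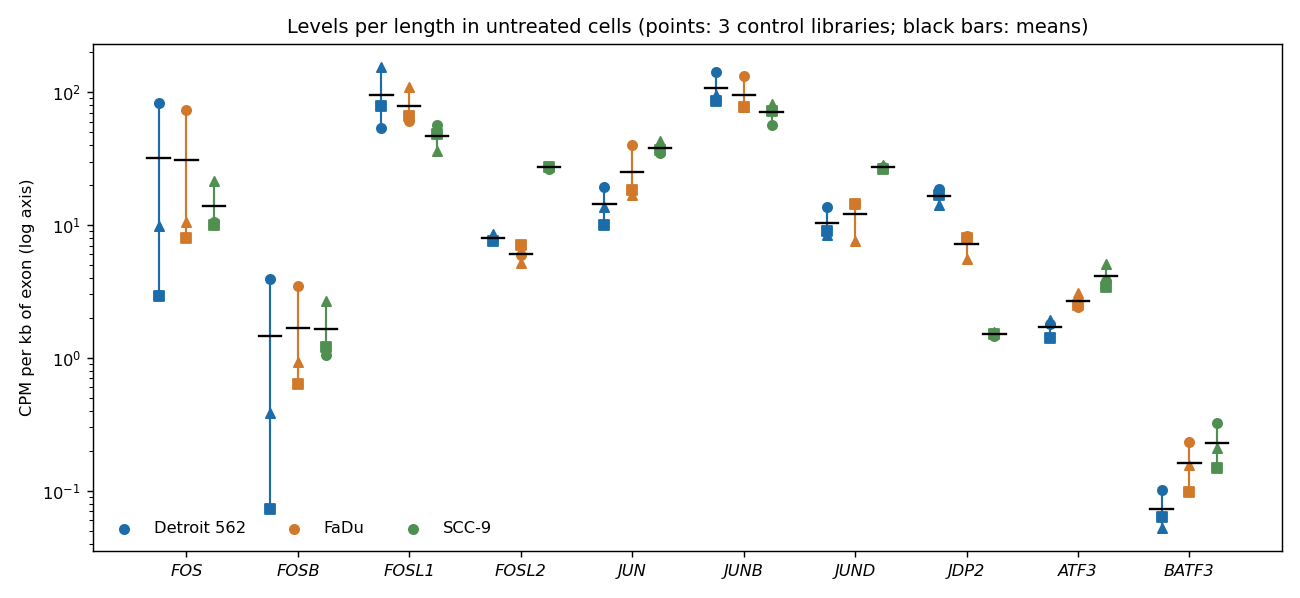
Levels per length of the 10 genes in untreated cells, in CPM per kb of exon on a log axis. Circles, squares and triangles are control replicates 1, 2 and 3, colors are cell lines and black bars are means. JDP2 steps down from Detroit 562 over FaDu to SCC-9, FOSL2 and JUND are highest in SCC-9, and FOS and FOSB spread most in Detroit 562.

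JDP2 differed most between untreated lines. Its control libraries 1, 2 and 3 held 116, 106 and 88.5 CPM in Detroit 562. They held 51.4, 49.5 and 34.7 CPM in FaDu. In SCC-9 they held 9.14, 9.46 and 9.71 CPM. The 3 groups did not overlap, and SCC-9 was the lowest. The log2 difference was 1.19 between Detroit 562 and FaDu (SE 0.173, padj = 9.31e-06), 3.45 between Detroit 562 and SCC-9 (SE 0.192, padj = 5.32e-11) and 2.26 between FaDu and SCC-9 (SE 0.186, padj = 8.63e-09).

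FOSL2, a FOS protein with a role in epithelial differentiation, and JUND, the JUN protein usually present in resting cells, were highest in SCC-9. FOSL2 held 190 to 197 CPM in the controls of SCC-9, 54.1 to 61.0 CPM in Detroit 562 and 37.1 to 50.2 CPM in FaDu. JUND held 48.8 to 52.6 CPM in SCC-9, 15.7 to 25.5 in Detroit 562 and 14.2 to 26.9 in FaDu. Every SCC-9 control lay above every control of the other lines for both genes. FOSL2 differed by -1.77 (SE 0.147, padj = 9.44e-09) between Detroit 562 and SCC-9 and by -2.17 (SE 0.149, padj = 9.01e-10) between FaDu and SCC-9. The values of JUND were -1.38 (SE 0.240, padj = 5.74e-05) and -1.16 (SE 0.238, padj = 0.000308).

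Over all genes tested, 61.0% were called between untreated Detroit 562 and FaDu, 65.4% between Detroit 562 and SCC-9 and 64.2% between FaDu and SCC-9. Of the 10 genes, 4, 8 and 5 were called, which is not far from these shares. ATF3 was called in all 3 comparisons, at log2 differences of -0.64, -1.26 and -0.62. FOSL1 was higher than in SCC-9 by 1.02 in Detroit 562 (padj = 0.0109) and 0.74 in FaDu (padj = 0.0537). Without Detroit 562 control 3 the first was 0.49 (padj = 0.142). Without FaDu control 3 or SCC-9 control 3 the second was 0.43 (padj = 0.276) or 0.59 (padj = 0.172).

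JUN was lower in Detroit 562 than in SCC-9 by 1.41 on the log2 scale (SE 0.330, padj = 0.000947). Its difference of -0.81 from FaDu (padj = 0.0345) was lost without FaDu control 1 (-0.30, padj = 0.373) or Detroit 562 control 2 (-0.61, padj = 0.142). JUN against SCC-9 was not called in FaDu (-0.60, padj = 0.103), but it was without FaDu control 1 (-1.12, padj = 0.00345) and with the block shared by the lines (-0.70, padj = 0.02). JUNB was higher in Detroit 562 than in SCC-9 by 0.62 (padj = 0.0386), and this call was lost without Detroit 562 control 1 (0.36, padj = 0.231) or SCC-9 control 1 (0.49, padj = 0.137). BATF3 was lower in Detroit 562 than in SCC-9 by 1.62 on the log2 scale (padj = 0.00676). Its -1.13 against FaDu (padj = 0.057) was lost without Detroit 562 control 2 (padj = 0.128), Detroit 562 control 3 (padj = 0.154) or FaDu control 1 (padj = 0.231).

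Upon HGF stimulation, FOSL1 and BATF3 rose in Detroit 562, and JUND and JDP2 fell. These 4 of the 10 genes compare with 17.9% of all genes called in this line, 6.16% upward and 11.7% downward. The median log2 fold change of the 10 genes was -0.35 against -0.01 over all genes tested. The 3 HGF libraries lay entirely above or below the 3 controls for 5 of the 10 genes, the 4 called and FOSL2, against 38.2% of all genes. In the same libraries the 5 leukocyte markers summed to 20.7 to 40.7 CPM in the controls and 37.7 to 56.6 CPM with HGF, and the 5 fibroblast markers to 17.1 to 21.4 and 10.8 to 11.6 CPM, nearly all of it CD68 and COL1A1. The 8 squamous markers summed to 4207 to 5373 and 3158 to 4457 CPM. Their part in the results was not tested.

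Libraries of the same replicate number within a line deviated alike from their group means. A fit with this number as a block within each line is therefore given wherever it changed a call. In it, FOS, FOSB and JUNB also fell in Detroit 562. This made 7 of the 10 genes, against 21.5% of all genes called in that fit. A block shared by the 3 lines, in which a number means the same in each line, called the 4 genes of the unblocked fit in Detroit 562 and none in FaDu or SCC-9.

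**Figure D2:**
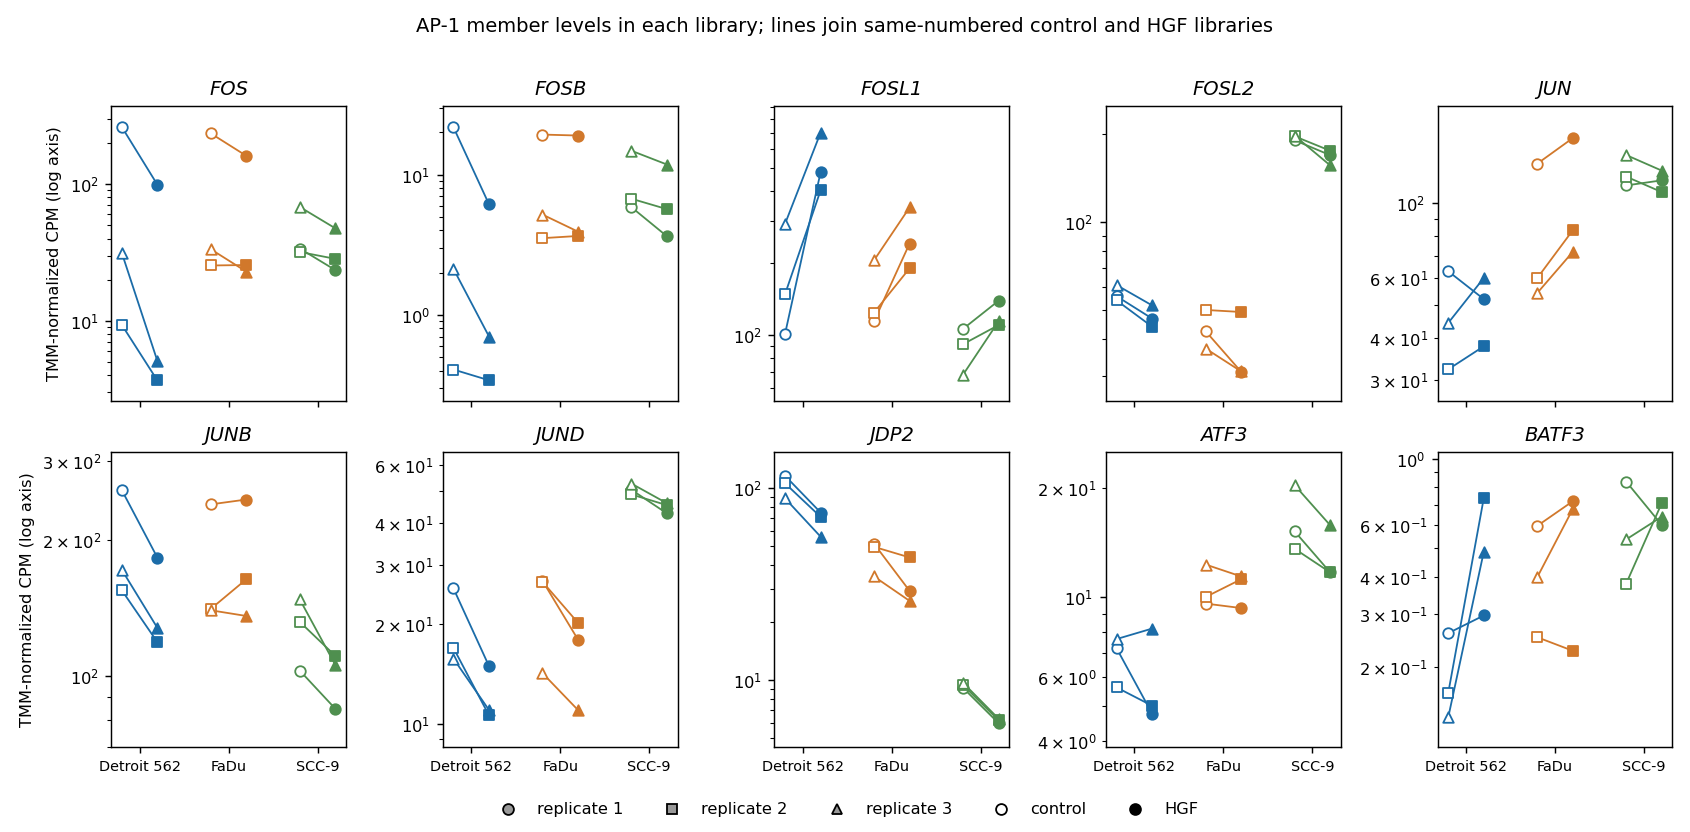
TMM-normalized CPM of the 10 genes in each of the 18 libraries, on log axes that differ between panels. Open symbols are controls and filled symbols HGF libraries, with a line joining those of the same replicate number. FOSL1 is higher and FOSL2, JUND and JDP2 are lower with HGF along every line, while replicate 1 of Detroit 562 and FaDu stands high for FOS and FOSB.

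FOSL1 (chr11:65892049-65900573, minus strand, GRCh38) held 101, 148 and 291 CPM in the controls of Detroit 562 and 479, 402 and 700 CPM in the HGF libraries of the same numbers. In FaDu the controls held 114, 124 and 205 CPM and the HGF libraries 241, 190 and 341. In SCC-9 they held 106, 91.5 and 68.2 and then 139, 110 and 114 CPM. FOSL1 was thus higher with HGF in 9 of 9 pairs, the groups were separate in Detroit 562 and SCC-9, and they overlapped in FaDu. Agreement of all pairs within a line was common. Of the 15475 genes tested, 4729 were higher and 5128 lower in every pair of Detroit 562. In FaDu these were 3091 and 3695, and in SCC-9 3704 and 3867. How many genes agreed in all 9 pairs was not counted.

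The log2 fold change of FOSL1 was 1.55 in Detroit 562 (SE 0.337, padj = 0.00475), or 2.94-fold. In FaDu it was 0.80 (SE 0.332, padj = 0.583), which was called only with the replicate block (0.81, SE 0.141, padj = 0.0021). In SCC-9 it was 0.45 (SE 0.333, padj = 1) and was not called in either fit (0.47, SE 0.143, padj = 0.104 with the block). The call in Detroit 562 was also lost when all libraries of number 1 were left out (1.33, padj = 0.109).

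JDP2 moved in the other direction. In Detroit 562 the controls held 116, 106 and 88.5 CPM and the HGF libraries 74.7, 70.9 and 55.9. In FaDu the controls of 51.4, 49.5 and 34.7 CPM stood against 29.2, 43.6 and 25.9. In SCC-9, 9.14, 9.46 and 9.71 CPM stood against 5.98, 6.19 and 6.31. JDP2 was lower in 9 of 9 pairs. The groups were separate in Detroit 562 and SCC-9 but overlapped in FaDu, where HGF library 2 lay above control 3.

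JDP2 fell by 0.62 on the log2 scale in Detroit 562 (SE 0.171, padj = 0.0158). The values were -0.46 in FaDu (SE 0.173, padj = 0.563) and -0.62 in SCC-9 (SE 0.193, padj = 0.922), neither called. With the replicate block JDP2 fell in all 3 lines, by 0.62 (SE 0.0785, padj = 1.89e-05), 0.47 (SE 0.0827, padj = 0.00224) and 0.62 (SE 0.11, padj = 0.0069). It was the only one of the 10 genes called in SCC-9 in any fit that was run. Without the libraries of number 1 its value in Detroit 562 was still -0.62, but with padj = 0.159. The calls of FOSL1 and JDP2 in Detroit 562 held with each of its libraries left out in turn. JDP2 (chr14:75427716-75474111, plus strand) starts 145486 bases beyond the end of FOS (chr14:75278774-75282230, plus strand) in GRCh38.

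JUND was lower with HGF in 9 of 9 pairs as well. In Detroit 562 it went from 25.5, 16.9 and 15.7 CPM to 14.9, 10.6 and 11 CPM, and the groups did not overlap. In FaDu it went from 26.9, 26.7 and 14.2 to 17.9, 20.1 and 11 CPM with overlap, and in SCC-9 from 48.8 to 52.6 down to 42.8 to 45.9 CPM without overlap. JUND fell by 0.67 on the log2 scale in Detroit 562 (SE 0.245, padj = 0.0566). This call was lost without HGF library 2 (padj = 0.153), HGF library 3 (padj = 0.161) or control 1 (-0.42, padj = 0.303). In FaDu it was called only with the block (-0.46, SE 0.0654, padj = 0.000493), and in SCC-9 in neither fit (-0.18, SE 0.233, padj = 1).

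BATF3 went from 0.259, 0.163 and 0.135 CPM to 0.297, 0.738 and 0.487 CPM in Detroit 562. All HGF libraries were above all controls, but replicate 1 hardly differed. The log2 fold change was 1.40 (SE 0.509, padj = 0.0531). It was lost without HGF library 2 (1.03, padj = 0.203), HGF library 3 (padj = 0.104), control 2 (padj = 0.144) or control 3 (padj = 0.12). In FaDu and SCC-9 the values were 0.38 and 0.15, and the groups overlapped.

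FOSL2 was lower in 9 of 9 pairs, but by less than the minimum fold change. Its log2 fold changes were -0.26 (SE 0.145), -0.22 (SE 0.145) and -0.22 (SE 0.142) in Detroit 562, FaDu and SCC-9. With the block, their padj was 0.0047, 0.0311 and 0.0702. Groups were separate in Detroit 562 and in SCC-9.

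In Detroit 562 and FaDu, FOS and FOSB differed more between replicates than between treatments. In Detroit 562, FOS held 262, 9.34 and 31.4 CPM in the controls and 99.0, 3.66 and 5.08 CPM with HGF. In FaDu it held 235, 25.4 and 33.4 and then 161, 25.6 and 22.9 CPM. In SCC-9 it held 33.8, 31.9 and 68.1 and then 23.5, 28.4 and 47.5 CPM. The libraries of number 1 were the highest in Detroit 562 and FaDu, whereas number 3 was in SCC-9, and the groups overlapped in every line.

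The highest control of Detroit 562 held 28.1 times the FOS level of the lowest, and the corresponding HGF libraries differed 27.0-fold. In FaDu these ratios were 9.23 and 7.02, and in SCC-9 2.13 and 2.03. Among the 15475 genes tested, only FOSB had a larger log2 range than FOS over the controls of Detroit 562. For FOSB, 21.8, 0.407 and 2.13 CPM in the controls stood against 6.14, 0.341 and 0.700 CPM with HGF.

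Within the pairs of Detroit 562, FOS had log2 differences of -1.41, -1.35 and -2.63 between HGF and control, and FOSB of -1.83, -0.26 and -1.60. Without the block, FOS (-1.48, SE 1.23, padj = 0.404) and FOSB (-1.73, SE 1.14, padj = 0.282) were not called. With it, FOS fell by 1.72 (SE 0.178, padj = 3.04e-06) and FOSB by 1.70 (SE 0.174, padj = 2.84e-06). As in every fit of all lines, the spread of a gene was estimated over the lines together. These SE and padj therefore do not measure the spread of the Detroit 562 pairs alone, which for FOSB was wide. The unblocked value of FOS ranged from -4.53 to 0.83 as each library was left out. Without HGF library 1, which left the high control 1 without its partner, both genes were called (padj = 0.0394 and 0.0742). Without control 1 their values turned to 0.83 for FOS and 0.95 for FOSB, and neither was called. Without all libraries of number 1, FOS was called at -2.22 (padj = 0.0871).

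In FaDu and SCC-9, FOS and FOSB were called in neither fit. With the block FOS was at -0.38 (SE 0.151, padj = 0.124) in FaDu and -0.41 (SE 0.153, padj = 0.193) in SCC-9. Of the 9 pairs, 8 were lower with HGF for each of the genes.

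JUNB went from 258, 155 and 172 CPM to 183, 119 and 128 CPM in Detroit 562. Each HGF library was below its own control, although the groups overlapped. The value of -0.45 (SE 0.257, padj = 0.213) was called only with the block (-0.44, SE 0.0557, padj = 2.05e-05), without HGF library 1 (-0.66, padj = 0.099) or without all libraries of number 1 (-0.41, padj = 0.0867). In FaDu it was 0.06 (SE 0.256), and in SCC-9 -0.34 (SE 0.258), with padj = 0.00468 in the blocked fit but under the minimum fold change.

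JUN and ATF3 were not called in any line. JUN had log2 fold changes of 0.10 (SE 0.327), 0.35 (SE 0.323) and -0.08 (SE 0.321) in Detroit 562, FaDu and SCC-9. In FaDu it was higher in 3 of 3 pairs, from 131, 60.1 and 54.3 to 156, 83.3 and 71.9 CPM, and just under the minimum fold change with the block (0.37, padj = 0.0187). ATF3 had values of -0.20 (SE 0.213), -0.00 (SE 0.203) and -0.33 (SE 0.2).

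In FaDu, none of the 10 genes was called without the block, against 0.0258% of all genes, and 3 with it (FOSL1, JDP2 and JUND) against 5.60%. At an unadjusted p below 0.05 there were 2, FOSL1 and JDP2, among 1247 of all 15475 genes. In SCC-9 the counts were 0 against 0% and 1, JDP2, against 1.97%, with JDP2 alone at an unadjusted p below 0.05, among 641 of all genes. DESeq2 with its fold change prior, run here on all 18 libraries, called none of the 10 in either line, with padj = 0.407 for JDP2 in FaDu and 0.324 in SCC-9. HGF and control libraries were separate for 0 of the 10 genes in FaDu, against 9.41% of all genes. In SCC-9 they were separate for 4, FOSL1 upward and FOSL2, JUND and JDP2 downward, against 17.4%.

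**Figure D3:**
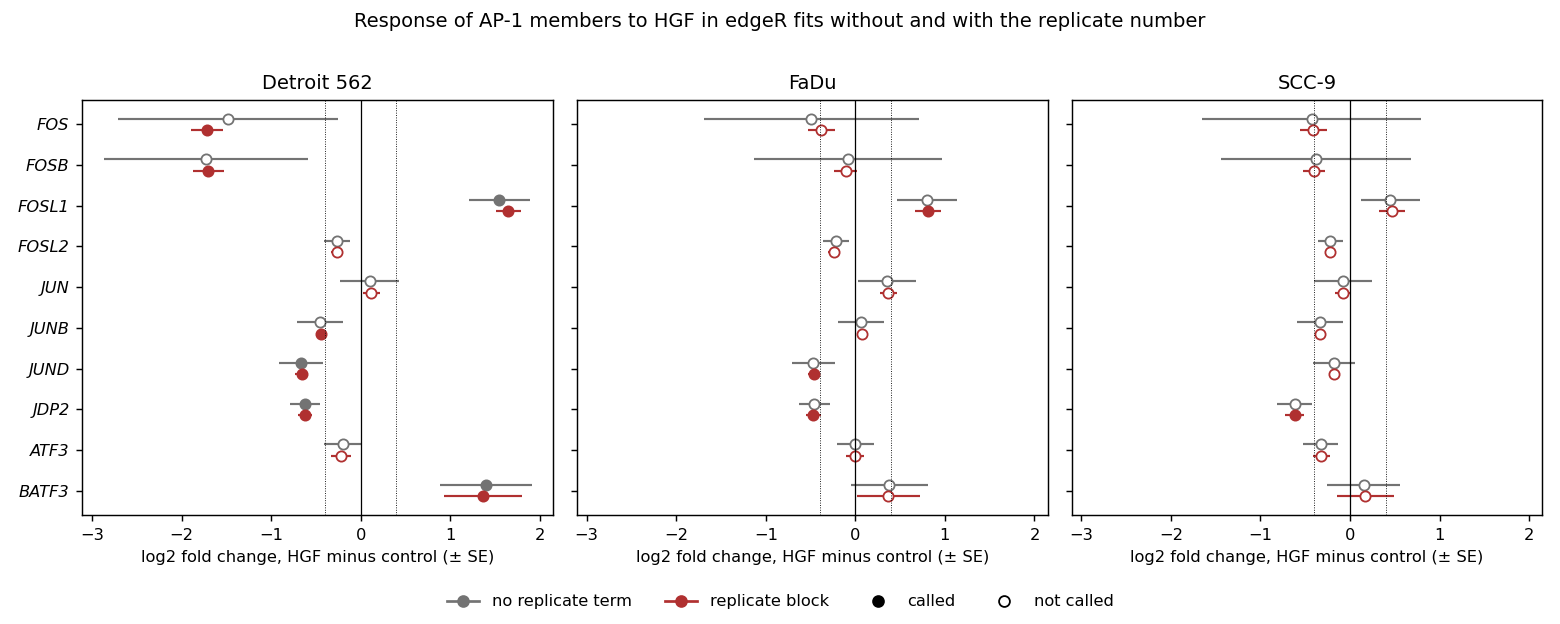
Log2 fold change of the 10 genes upon HGF stimulation with its SE, in edgeR fits without the replicate number (grey) and with it as a block (red). Filled points were called, and dotted lines mark the minimum fold change of 0.4. Most point estimates hardly move, while the SE of FOS in Detroit 562 shrinks from 1.23 to 0.178.

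Whether the response to HGF differed between lines was tested as the difference of the fold changes, at padj below 0.1 without a minimum. Without the block, none of the 10 genes differed. Over all genes, 0.239% differed between Detroit 562 and FaDu, 0.924% between Detroit 562 and SCC-9 and 0% between FaDu and SCC-9. At an unadjusted p below 0.05 the only member was FOSL1, between Detroit 562 and SCC-9 (1.10, SE 0.469, padj = 0.286), among 2378 of all genes. It was called there without Detroit 562 control 3 (1.63, padj = 0.0412). DESeq2 found none of the 10 in these comparisons.

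With the block, 4 genes differed between Detroit 562 and FaDu, against 19.1% of all genes. FOSL1 rose more in Detroit 562, by 0.84 on the log2 scale (SE 0.199, padj = 0.0148), and FOS (-1.34, SE 0.234, padj = 0.00272), FOSB (-1.58, SE 0.215, padj = 0.000556) and JUNB (-0.51, SE 0.0785, padj = 0.00142) were lower. Between Detroit 562 and SCC-9 there were also 4, against 26.9%. These were FOSL1 (1.18, SE 0.201, padj = 0.00126), FOS (-1.31, SE 0.235, padj = 0.00176), FOSB (-1.30, SE 0.214, padj = 0.00103) and JUND (-0.48, SE 0.0908, padj = 0.00269). Only JUNB differed between FaDu and SCC-9 (0.40, SE 0.0789, padj = 0.0275), against 1.32%. All these SE rest on a spread estimated over the lines together, while the FOSB pairs of Detroit 562 were -1.83, -0.26 and -1.60. None of these 9 differences was called with the block shared by the lines. That block assumes that a number means the same in each line. Controls of SCC-9 showed no such likeness to same-numbered controls of the other lines (Pearson's r of -0.107 to 0.108). The shared block therefore cannot settle whether these responses differ.

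The response of JDP2 was not found to differ between lines. With the block, its fold change in Detroit 562 differed from that in SCC-9 by -0.01 on the log2 scale (SE 0.14, padj = 0.986) and from that in FaDu by -0.15 (SE 0.114, padj = 0.415). A padj above the threshold does not show that the responses were alike.

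The make-up of the FOS subfamily followed from these levels. As a share of the summed CPM per kb of its 4 genes, FOSL1 made up 36.2%, 88.1% and 89.1% in the controls of Detroit 562 and 86.8%, 96.7% and 97.6% with HGF. FOS made up 55.9% in Detroit 562 control 1 and 51.3% in FaDu control 1, but no more than 27.1% in the other libraries. In SCC-9, FOSL2 contributed 28.2% to 31.5% in the controls and 22.0% to 26.4% with HGF. A share can change because another member changed, and the shares were not tested. In the JUN subfamily, JUNB made up 70.1% to 81.8% in Detroit 562 and FaDu and 44.1% to 53.5% in SCC-9.

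**Figure D4:**
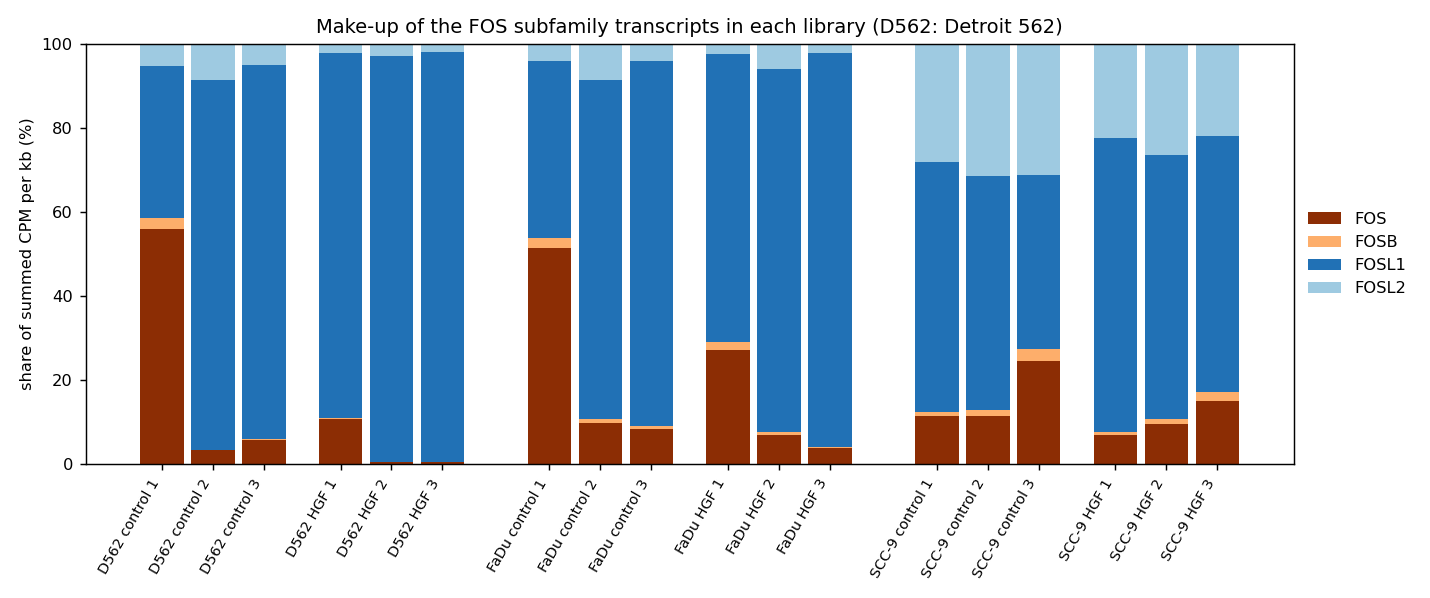
Share of FOS, FOSB, FOSL1 and FOSL2 in the summed CPM per kb of the FOS subfamily, in percent, with 1 bar per library. FOSL1 makes up the largest share except in control 1 of Detroit 562 and of FaDu, where FOS does, at 55.9% and 51.3%.

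How the genes varied together was described by Pearson's r of the log2 CPM over the 18 libraries, after the mean of each line was subtracted. The libraries share treatment and replicate numbers, so r reflects both. FOS and FOSB had r = 0.971 and FOS and JUNB 0.881. FOSL1 ran against JDP2 (-0.876) and JUND (-0.846), and JUND ran with JDP2 (0.837). FOS and JDP2, neighbors on chromosome 14, had r = 0.383.

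Among 12364 genes with a mean count of at least 100, those most like JDP2 were TNFAIP2 (0.964), PDK2 (0.959) and CAT (0.952). Those most like FOSL1 were C1orf109 (0.982), PLEK2 (0.980) and POLR1B (0.980). For FOS they were FOSB, EGR1 (0.909) and IER2 (0.897), both of these immediate early genes.

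Of 20 genes commonly described as regulated through AP-1, 9 rose and 2 fell in Detroit 562, against 17.9% of all genes called in either direction, and their median was a log2 fold change of 0.40 against -0.01 over all genes. MMP1, interstitial collagenase, rose most (2.91, SE 0.352, padj = 0.000167), and the growth factor HBEGF also rose (1.58, SE 0.248, padj = 0.001). The collagenase MMP13 (-1.67, SE 0.441, padj = 0.0127) and IVL, a late squamous differentiation gene (-1.47, SE 0.315, padj = 0.0046), fell. In FaDu none was called without the block (0.0258% of all genes were), and 11 rose and 1 fell with it (5.60% of all genes were called). MMP9 (2.14) and CXCL8 (1.06) rose most and MMP13 fell (-0.66). At 0.332, 0.176 and 0.352 CPM in the controls and 1.25, 0.302 and 2.39 CPM with HGF, MMP9 was low and its groups overlapped. In SCC-9 none was called in either fit.

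Of 21 genes for kinases and transcription factors that act on AP-1, 3 rose and 3 fell in Detroit 562, where 17.9% of all genes were called. MAPK8, encoding the kinase JNK1, rose by 0.64 (padj = 0.00177), ELK3 by 0.50 (padj = 0.0497) and MAP2K1, encoding MEK1, by 0.49 (padj = 0.00218). MAP2K6 (-1.21, padj = 0.0221), MAPK10 (-1.06, padj = 0.000814) and MAPK3, encoding ERK1 (-0.44, padj = 0.0266), fell. Their median of 0.09 was close to that of all genes. In FaDu only MAP2K6 was called, with the block (-0.48, padj = 0.0522), and in SCC-9 none was.

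Of 12 further bZIP partner genes, 10 were tested, and 2 rose and 2 fell in Detroit 562, against the same 17.9%. The small MAF gene MAFF rose by 0.88 (padj = 0.0114) and BATF2 by 0.72 (padj = 0.0255), whereas NRL (-0.57, padj = 0.0608) was among those that fell. The median was -0.19. In FaDu only MAFF was called, with the block (0.46, padj = 0.0164), and in SCC-9 none was.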

How the data were processed

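Per the labels, mRNA was captured with oligo-dT and libraries were made with a stranded kit. According to the submitters' processing notes, bcl2fastq 2.20.0.422, cutadapt 1.16, STAR 2.5.2b, bedtools and DESeq2 1.22.1 were used with the genome GRCh38.p12. The deposited values are the authors' raw counts of reads per gene, whole numbers without normalization. Reads were counted over the whole extent of a gene on its strand. None of the 10 genes overlaps another on its strand, while FOSB overlaps ERCC1 and JUNB overlaps HOOK2 on the other.

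Counts were analyzed with edgeR 4.0.16 in R 4.3.3. After filterByExpr, 15475 genes were tested. TMM factors were between 0.931 and 1.05. The quasi-likelihood model held 6 groups of 3 libraries and no replicate term. The study's methods give 1 count table of all lines as the input of DESeq2, but no design formula. Each padj is the p of edgeR's quasi-likelihood test after Benjamini-Hochberg adjustment across the 15475 genes, except where DESeq2 (1.42.0) is named. The fit was tested on simulated data. Levels per kb used the union of exons of GENCODE 44 within the deposited extent, although reads were counted over the whole extent. Depth limits the precision of BATF3 most.

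Replicate numbers were checked for pairing by correlating deviations from the group means across genes. Libraries of the same number had r of 0.161 to 0.454 in Detroit 562, 0.376 to 0.563 in FaDu and 0.203 to 0.332 in SCC-9, and different numbers averaged -0.144, -0.227 and -0.136. Deviations from a group mean cancel out within the group, so the negative values follow from the positive ones and are not separate evidence. Pairing within a line thus rests on the same-number values alone, which were positive throughout. Between same-numbered controls of Detroit 562 and FaDu, r was 0.0999 to 0.326. With SCC-9 it was -0.107 to 0.0592 for Detroit 562 and -0.0639 to 0.108 for FaDu. Genes are not independent replicates in this check.

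The members and lists were chosen with earlier results of these data known. The text names all members, up to 3 called rises and 3 falls per further list and line, DUSP6 and SPRY4, and the 3 genes most like JDP2, FOSL1 and FOS. KRT14, PTPRC, CD68, COL1A1, COL3A1, DCN, PDGFRB and LUM were named after their values were seen. Alternatives were the replicate block, other size factors, no filter, DESeq2 with its fold change prior, fits of only the compared lines, stricter thresholds and each library left out. A block shared by the lines and the omission of all libraries of number 1 were added after seeing the data. Some genes that this rule selects are not reported here. Protein sequences were not used here.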

Additional observations from a re-analysis of the deposited data

Results flagged for a closer look

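In the fit with a replicate block, 9 responses to HGF differed between lines by the test of the difference itself. FOSL1 rose more in Detroit 562 than in FaDu, by 0.84 on the log2 scale, and more than in SCC-9, by 1.18. FOS differed by -1.34 and -1.31 and FOSB by -1.58 and -1.30 in the same comparisons. JUNB differed by -0.51 between Detroit 562 and FaDu and by 0.40 between FaDu and SCC-9, and JUND by -0.48 between Detroit 562 and SCC-9. Without the block, or with a block shared by the lines, the same test called none of them. The shared block assumes that numbers match across lines, which was not seen for SCC-9, so it cannot settle these differences. The comparisons between Detroit 562 and the other lines share its libraries. Since the spread was estimated over the lines together, the test does not measure that of the Detroit 562 pairs alone.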

How the results depend on the processing

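In Detroit 562, 4 of the 10 genes were called with HGF. This became 7 with the replicate block, 1 under the stricter threshold (padj below 0.05, log2 fold change of 1 or more), 2 without the libraries of number 1 (FOS and JUNB, so none of the 4), and 2 to 7 with 1 library left out. The 4 were called under the other scalings, without the filter, with DESeq2 and in the fit of this line alone. In FaDu the count went from 0 to 3 with the block within lines. In SCC-9 it went from 0 to 1 with the block and to 1 in the fit of this line alone, JDP2 each time. For differences between responses it went from 0 to 4 (Detroit 562 and FaDu), 4 (Detroit 562 and SCC-9) and 1 (FaDu and SCC-9) with the block, and for Detroit 562 and SCC-9 it was 0 to 1 with 1 library left out. In untreated cells, the stricter threshold left 1 of 4 between Detroit 562 and FaDu and 3 of 5 between FaDu and SCC-9. With 1 library left out, these counts were 2 to 6 and 5 to 6. Without Detroit 562 control 1, FOSB was called against FaDu (-2.88) and SCC-9 (-2.84). FOSL2 between Detroit 562 and FaDu lay at the minimum fold change of 0.40 and was called with DESeq2, with its size factors and without the filter.

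Without the libraries of number 1, 2 values turned and were then called. FOS in untreated Detroit 562 against SCC-9 went from 1.18 to -1.29 (padj = 0.0461), and FOSB in FaDu against SCC-9 from 0.04 to -1.30 (padj = 0.074). Others changed sign without being called in either fit. These were FOS between untreated FaDu and SCC-9 (1.13 to -0.77) and between Detroit 562 and FaDu (0.05 to -0.53). In the response of FaDu minus SCC-9 they were FOS (-0.06 to 0.12), BATF3 (0.23 to -0.09) and FOSL2 (-0.00 to 0.13). ATF3 with HGF in FaDu also changed sign (-0.00 to 0.01). The cause was not tested. The block within lines changed no other call of a member than those given. Over all genes, the block moved the calls with HGF from 4 to 867 in FaDu and from 0 to 305 in SCC-9, and those of differing responses from 37 to 2956, 143 to 4170 and 0 to 204. DESeq2 gave 66, 19, 270, 649 and 5. A block within each line could not be applied between untreated lines, and a block shared by the lines gave 5, 8 and 6 called genes there, adding FOSL2 between Detroit 562 and FaDu (0.41, padj = 0.0136) and JUN between FaDu and SCC-9 (-0.70, padj = 0.02). With HGF this shared block gave 4, 0 and 0, and 0 for each difference of responses. Depth limits BATF3 most, with 5 to 35 counts per library.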
